A study of Bos taurus with 6 samples.

Results

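The miR-181 family of microRNAs (miRNAs) was followed in granulosa cells, the steroid-producing somatic layer around the oocyte inside the ovarian follicle. Its members were taken by name alone, as every mature bovine miRNA whose name is miR-181 followed by a letter. This gave 4 of the 755 mature names in the count files, namely bta-miR-181a, bta-miR-181b, bta-miR-181c and bta-miR-181d. A further 3 names that begin with the same digits but carry a longer number (such as bta-miR-1814c) were left out. None of the members was named by its 5p or 3p arm, so the opposite arms of these hairpins were not analysed here.

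A miRNA is cut from a hairpin precursor and guides a silencing complex to messenger RNAs that match its seed, the short stretch near its 5′ end. The miR-181 members are paralogs that share that seed, and so overlap widely in their predicted targets, while they are transcribed from separate clusters that can be regulated apart. In the ovary the family is known for miR-181a, which was reported to repress activin receptor IIA (ACVR2A) in cultured granulosa cells. Activin is a ligand of the TGF-β superfamily that acts through type I and type II receptors and SMAD proteins to promote granulosa cell proliferation. The family is also known for its high level in developing lymphocytes. Mature sequences were not used here, so no seed or base difference is shown.

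All libraries came from oestrus-synchronised Simmental heifers at day 19 of the estrous cycle, with no genetic change or treatment that separated the groups. The 3 libraries of preovulatory dominant follicles and the 3 of anovulatory subordinate follicles were made from pooled granulosa cell RNA, and the study sorted the follicles by surface diameter. The animals supplied far fewer dominant than subordinate follicles, so a library may stand for few follicles in the former group and many in the latter. Nothing in the labels ties a pool to an animal, and the SD and p-values below measure the spread between pools. Counting each mature name once, library totals ran from 190385 to 364125 reads. Levels are given as CPM, reads scaled by edgeR to a common library size with TMM factors, on which 3 reads correspond to between 8.86 and 13.9 CPM.

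RefSeq annotation of a later bovine assembly (ARS-UCD2.0) lists 6 hairpin genes for the family, which lie in 3 pairs of direct neighbours. MIR181A-1 stands next to MIR181B-1 and overlaps no other annotated gene. MIR181A-2 stands next to MIR181B-2, and both lie within the protein-coding gene NR6A1 and a long non-coding RNA. MIR181C and MIR181D are neighbours within the span of NANOS3. The count files hold 1 row for each of these 6 precursors, and only bta-miR-181a and bta-miR-181b are listed under more than 1 of them.

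The precursor rows did not separate the clusters. The rows of bta-mir-181a-1 and bta-mir-181a-2 held equal counts in 6 of 6 libraries, so that the same reads stand in both and the reads cannot be divided between the hairpins. The bta-mir-181b-2 row exceeded the bta-mir-181b-1 row in 6 of 6 libraries, by 10, 7 and 18 reads in dominant follicles and by 25, 19 and 19 reads in subordinate follicles. This excess was 9.13 ± 2.40% (SD, n = 3) of the larger row in dominant and 12.5 ± 3.17% (SD, n = 3) in subordinate follicles. The libraries of the groups overlapped in this share. For every member the largest row was used below.

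Bta-miR-181a dominated the family in both follicle types. Its reads numbered 1259, 1342 and 1983 in the dominant libraries and 1332, 1074 and 1573 in the subordinate ones. The corresponding levels were 4443, 6225 and 6314 CPM in dominant and 3934, 3474 and 5551 CPM in subordinate follicles. The groups overlapped, since dominant replicate 1 lay below subordinate replicate 3. Bta-miR-181a ranked 29 of 353 tested miRNAs by mean level in dominant follicles and 33 in subordinate follicles.

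Bta-miR-181b, its partner in 2 of the clusters, was about an order of magnitude less frequent, with 97, 110 and 168 reads in dominant and 155, 182 and 175 reads in subordinate follicles. Its levels were 342, 510 and 535 CPM and 458, 589 and 618 CPM, respectively. The dominant libraries covered a lower range than the subordinate ones, with overlap between dominant replicates 2 and 3 and subordinate replicate 1. The ranks were 101 in dominant and 89 in subordinate follicles.

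Bta-miR-181c, from the remaining cluster, had 33, 19 and 43 reads in dominant and 66, 42 and 42 reads in subordinate follicles. This gave 116, 88.1 and 137 CPM against 195, 136 and 148 CPM. The overlap was narrow, as only dominant replicate 3 reached above the lowest subordinate library.

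Bta-miR-181d, which shares its cluster with bta-miR-181c, was close to the limit of what these libraries can measure. Its reads numbered 8, 4 and 6 in dominant and 9, 10 and 5 in subordinate follicles. By counting error alone, the 4 reads of dominant replicate 2 have a 95% exact Poisson interval from 1.09 to 10.2 reads and the 10 reads of subordinate replicate 2 one from 4.80 to 18.4. Differences in this member were thus hardly detectable at this depth. The order from bta-miR-181a down to bta-miR-181d was the same in 6 of 6 libraries, and the ranges of neighbours in that order did not meet. Such an order compares read counts, which also depend on how well each small RNA is ligated and amplified.

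**Figure D1:**
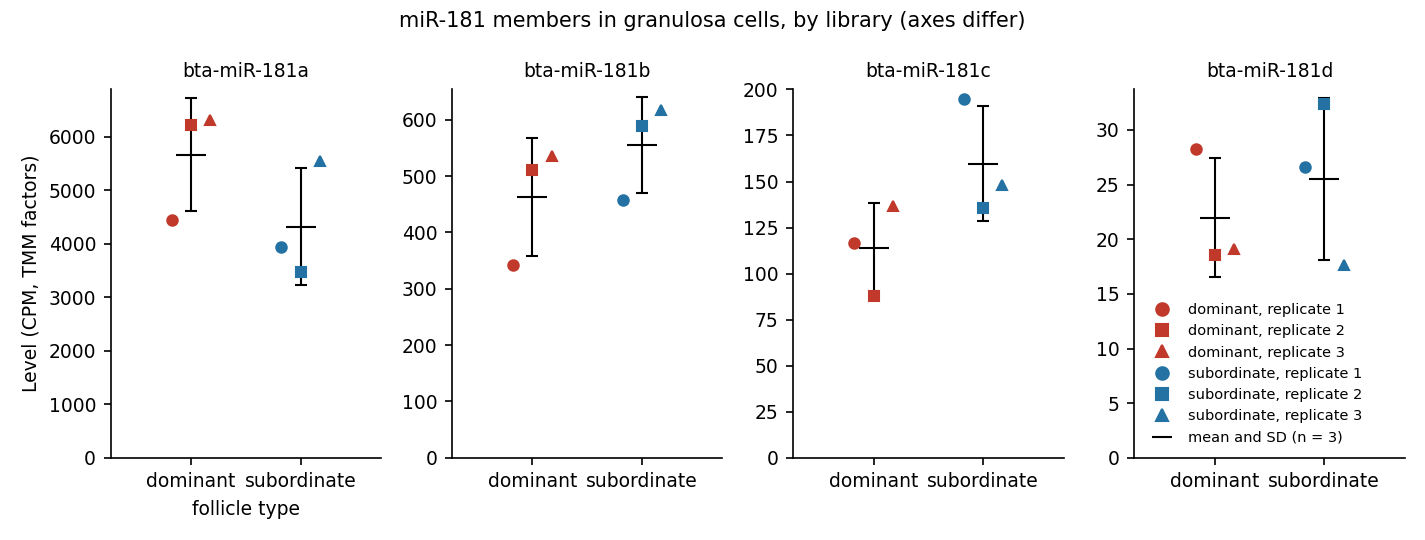
Level of each miR-181 member (y axis, CPM with TMM factors, from 0, on a separate scale for each member) in the 3 libraries of dominant and the 3 of subordinate follicles (x axis); symbols are libraries and bars the mean and SD. The groups overlap for all 4 members, and bta-miR-181a is the one with the higher mean in dominant follicles.

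The family was then compared between the follicle types, the question being whether its members differ between follicles about to ovulate and those that are not. None of the members was called as differentially expressed in edgeR's quasi-likelihood test. A call required a log2 fold change of 1 or more in either direction, with limits of 0.05 on the unadjusted and 0.1 on the adjusted p-value, and 0 of 4 members met this. Over all 353 tested miRNAs 21.5% were called. Without the fold change threshold 30.3% of the tested miRNAs and again 0 members passed. DESeq2 also called 0 members, and 0 had an unadjusted p of at most 0.05 in edgeR. The CPM ranges of the groups did not overlap for 36.8% of the tested miRNAs and for 0 of the 4 members.

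Bta-miR-181a averaged 5661 ± 1056 CPM in dominant and 4319 ± 1091 CPM in subordinate follicles (SD, n = 3 each). Its log2 fold change, dominant over subordinate, was 0.39 (standard error 0.23, 95% interval from -0.14 to 0.92, adjusted p = 0.261 from edgeR). This interval reaches neither a doubling nor a halving, but its upper end passed a doubling with the total count (1.14) and without dominant replicate 1 (1.11) or subordinate replicate 3 (1.09). The other members had negative values. Bta-miR-181b averaged 462 ± 105 CPM in dominant and 555 ± 85.2 CPM in subordinate follicles (SD, n = 3 each), which is -0.26 on the log2 scale (95% interval from -0.82 to 0.29, adjusted p = 0.46 from edgeR).

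Bta-miR-181c averaged 114 ± 24.5 CPM against 160 ± 31.1 CPM (SD, n = 3 each), with a log2 fold change of -0.48 (95% interval from -1.16 to 0.20, adjusted p = 0.28 from edgeR). Bta-miR-181d averaged 22.0 ± 5.43 CPM against 25.5 ± 7.41 CPM (SD, n = 3 each), with a log2 fold change of -0.21 (95% interval from -1.29 to 0.87, adjusted p = 0.768 from edgeR). For these 2 members a change past the fold threshold lies within the interval, so the data do not show that the levels were alike. The interval of bta-miR-181b also reached past that threshold without subordinate replicate 1 (lower end -1.04). In bulk RNA, fewer cells that express a miRNA and less of it per cell cannot be told apart.

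**Figure D2:**
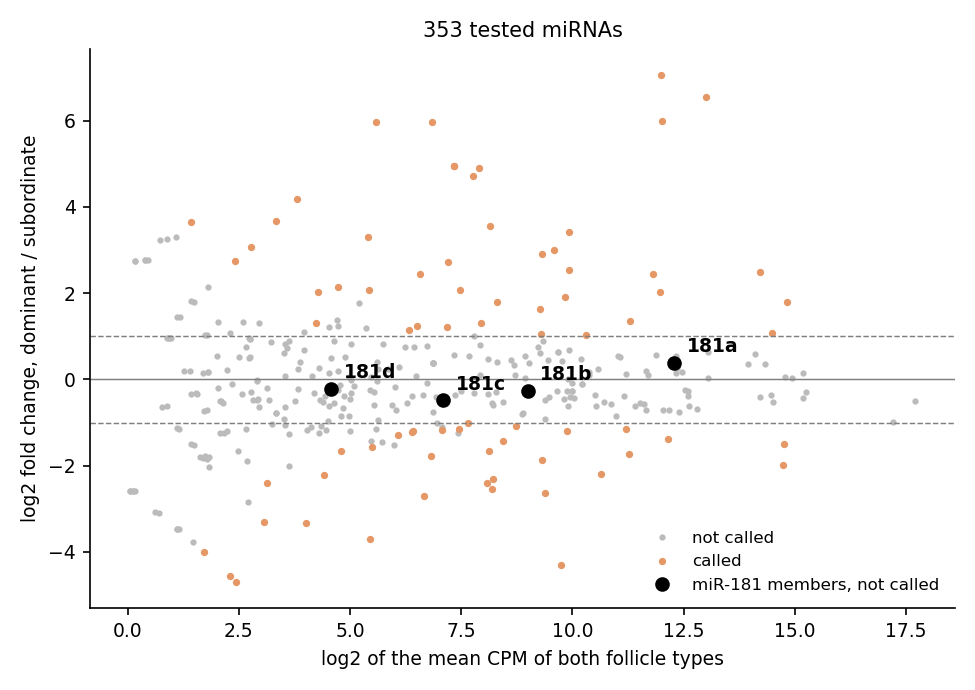
Log2 fold change of dominant over subordinate follicles (y axis) against the log2 of the mean CPM of both follicle types (x axis) for the 353 tested miRNAs; orange points were called, grey points were not, black points are the miR-181 members, and dashed lines mark a log2 fold change of 1 and -1. All 4 members lie inside the dashed lines, at log2 fold changes between -0.48 and 0.39.

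These fold changes depend in part on the scaling, because the median log2 fold change of all tested miRNAs was -0.20 with TMM factors and -0.01 with the total count alone, a shift of 0.19. Relative to that median, bta-miR-181a lay 0.59 higher with TMM factors and 0.60 higher with the total count. Bta-miR-181b was at -0.06 and -0.04, and bta-miR-181c at -0.28 and -0.29. Bta-miR-181d was at -0.01 and 0.01, so its sign relative to the median is not determined. With TMM factors and a minimum of 10 reads in 3 libraries, which removed bta-miR-181d, the median was -0.04. Relative to it bta-miR-181a lay at 0.44, bta-miR-181b at -0.21 and bta-miR-181c at -0.42, so these values also depend on the filter. With 1 library left out, the value relative to the median ran from 0.33 (without subordinate replicate 2) to 0.67 for bta-miR-181a and from -0.35 (without subordinate replicate 1) to 0.05 (without dominant replicate 1) for bta-miR-181b, whose sign is thus not determined either. For bta-miR-181c it ran from -0.51 (without subordinate replicate 2) to -0.12 (without dominant replicate 2), and for bta-miR-181d from -0.35 to 0.17. The median of the 4 members was -0.24, beside -0.20 over all tested miRNAs.

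The paralogs were next compared with each other inside each library, where no scaling between libraries is needed. Bta-miR-181a outnumbered bta-miR-181b by 13.0, 12.2 and 11.8 reads to 1 in the dominant libraries and by 8.59, 5.90 and 8.99 to 1 in the subordinate ones. Every dominant library thus had a higher ratio than every subordinate library. The 3 dominant values were 12.3 ± 0.598 and the subordinate values 7.83 ± 1.68 (SD, n = 3 each). By counting error alone, the ratio in dominant replicate 1 has a 95% exact binomial interval from 10.6 to 16.1. The closeness of the dominant values is thus finer than these reads resolve.

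On the log2 scale, with 1 read added to both counts, the ratio of bta-miR-181a to bta-miR-181b was 3.61 ± 0.07 in dominant and 2.94 ± 0.33 in subordinate follicles (SD, n = 3 each). The difference was 0.67 (standard error 0.20), a fold of 1.60, with a two-sided exact permutation p = 0.1, the smallest that 3 against 3 libraries can give. Adjusted over the 6 pairs of members it became p = 0.3 in the exact permutation test. The 95% exact binomial interval of the ratio, which covers counting error only, ran from 10.04 to 15.0 in dominant replicate 2. In subordinate replicate 3 it ran from 7.68 to 10.6. These intervals overlap, but overlap alone does not show that the ratios agree within counting error, and their difference was not tested. With the smaller bta-mir-181b-1 row in place of the larger one, an alternative chosen after seeing the data, the ratios were 14.5, 13.0 and 13.2 against 10.2, 6.59 and 10.1, again without overlap.

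The ratio of bta-miR-181a to bta-miR-181c behaved alike. It was 38.2, 70.6 and 46.1 reads to 1 in dominant follicles and 20.2, 25.6 and 37.5 to 1 in subordinate follicles, without overlap, although dominant replicate 1 and subordinate replicate 3 came within 1 unit of each other. The log2 difference was 0.87 (standard error 0.36, exact permutation p = 0.1, adjusted p = 0.3). With bta-miR-181d as the partner the groups overlapped, and the log2 difference was 0.55 (standard error 0.53, exact permutation p = 0.2, adjusted p = 0.4), which moved to 0.23 without subordinate replicate 2 and to 0.95 without subordinate replicate 3.

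Among the less abundant members the ratios gave no separation. The log2 difference was 0.20 (standard error 0.39) for bta-miR-181b over bta-miR-181c, -0.13 (standard error 0.47) for bta-miR-181b over bta-miR-181d and -0.33 (standard error 0.36) for bta-miR-181c over bta-miR-181d. Their exact permutation p-values were 0.7, 0.9 and 0.3, and 0.84, 0.9 and 0.45 after adjustment. No pair could pass an unadjusted threshold of 0.05 with this number of libraries. The pairs are not independent, since each member enters 3 of them. Ratios without overlap between the groups were common in these libraries, at 38.5% of the 62128 pairs that the 353 tested miRNAs form and at 33.3% (2 of 6) of the pairs of members, so nothing particular to the family is read from that count.

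**Figure D3:**
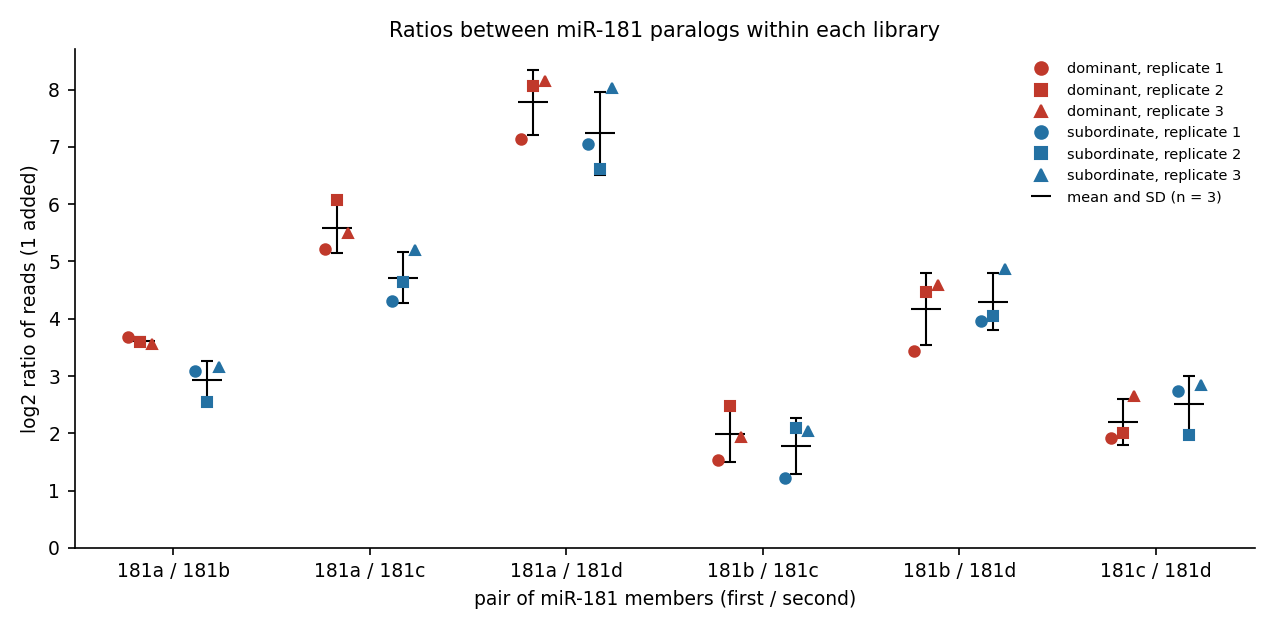
Log2 ratio of reads between each pair of miR-181 members (y axis, 1 read added to both counts) in each library, by pair (x axis); symbols are libraries and bars the mean and SD. The dominant libraries lie above all subordinate libraries for bta-miR-181a over bta-miR-181b and over bta-miR-181c, while the other 4 pairs overlap; 38.5% of all pairs of tested miRNAs do not overlap.

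Expressed as a composition, bta-miR-181a made up 90.4 ± 0.493% of the family's reads in dominant and 85.0 ± 2.77% in subordinate follicles (SD, n = 3 each). Bta-miR-181b made up 7.35 ± 0.360% and 11.2 ± 2.36%, bta-miR-181c 1.87 ± 0.542% and 3.26 ± 0.944%, and bta-miR-181d 0.372 ± 0.174% and 0.540 ± 0.245% (SD, n = 3 each). The family as a whole summed to 4929, 6842 and 7005 CPM in dominant follicles and to 4613, 4231 and 6334 CPM in subordinate follicles, and these ranges overlapped. It took 0.673 ± 0.122% of all miRNA reads in dominant and 0.472 ± 0.113% in subordinate follicles (SD, n = 3 each), when each mature name is counted once. How far reads of one paralog were counted on another was not tested.

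For each member with enough reads, the miRNAs whose pattern over the 6 libraries was most like its own were then listed. Likeness was the root mean square difference of log2 CPM after centring each miRNA on its mean, over 172 miRNAs outside the family with at least 10 reads on average in both groups. For bta-miR-181a the nearest were bta-miR-23a at 0.12, bta-miR-454 at 0.17 and bta-miR-1839 at 0.20, beside a median of 0.55 over all 172. Bta-miR-23a had 84, 72 and 105 reads in dominant and 70, 57 and 86 reads in subordinate follicles. Once library size is considered, it and bta-miR-181a were both highest in dominant replicates 2 and 3 and next in subordinate replicate 3.

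For bta-miR-181b the nearest were bta-miR-592, bta-miR-532 and bta-miR-15b, at 0.14, 0.17 and 0.20. For bta-miR-181c they were bta-miR-101, bta-miR-423-5p and bta-miR-16b, at 0.14, 0.19 and 0.20. The median over all 172 was 0.48 for bta-miR-181b and 0.54 for bta-miR-181c. Within the family, the distance between bta-miR-181a and bta-miR-181b was 0.39 and that between bta-miR-181b and bta-miR-181c 0.41. Both lay below these medians and that of bta-miR-181a, while the distance between bta-miR-181a and bta-miR-181c was 0.57. No miRNA stood in more than 1 of these 3 lists, but lists this short from 172 candidates would mostly share none anyway. That count therefore does not show that the members differ. These distances describe 6 libraries and were not tested.

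Other miRNAs that have been reported to act on the activin and TGF-β pathway in granulosa cells were read from the same fit. Of 7 listed miRNAs, 2 were called lower and 0 higher in dominant follicles, and 5 were not called. Of all tested miRNAs 9.63% were called lower and 11.9% higher. The median log2 fold change of the 7 listed miRNAs was 0.27, beside -0.20 over all tested miRNAs. Bta-miR-92a, reported to target the inhibitory SMAD7, had 3167, 2699 and 3049 reads in dominant and 14140, 17352 and 9468 reads in subordinate follicles. Its log2 fold change was -1.97 (standard error 0.21, adjusted p = 0.00027 from edgeR), and every dominant library lay below every subordinate one.

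Bta-miR-224, reported to target SMAD4, had 37, 32 and 39 reads in dominant and 94, 72 and 84 reads in subordinate follicles. The log2 difference of -1.002 (standard error 0.24, adjusted p = 0.0198 from edgeR) stood at the fold threshold. It was called in 7 of 13 alternatives, and not with the total count (-0.80), the 10-read minimum or without dominant replicate 1 or 3 or subordinate replicate 1 or 3, while bta-miR-92a was called in 13 of 13. The remaining listed miRNAs were not called, among them bta-miR-26b, another reported regulator of SMAD4, at 0.27, and bta-miR-145, reported to act on the type I receptor ACVR1B, at -0.26. Bta-miR-34a, reported to act on the inhibin and activin subunit INHBB, stood at 1.19 with an adjusted p = 0.117 from edgeR, and was called in 3 of 13 alternatives (with the total count, with the 10-read minimum and without dominant replicate 3). It had 15, 19 and 10 reads in dominant and 8, 9 and 6 reads in subordinate follicles. The CPM of bta-miR-34a, bta-miR-26b, bta-miR-224 and bta-miR-92a did not overlap between the groups, as for 36.8% of all tested miRNAs. The CPM of bta-miR-145, bta-miR-425-5p and bta-miR-144 did overlap. Bta-miR-425-5p stood at 0.38, and bta-miR-144 had at most 5 reads in any library.

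**Figure D4:**
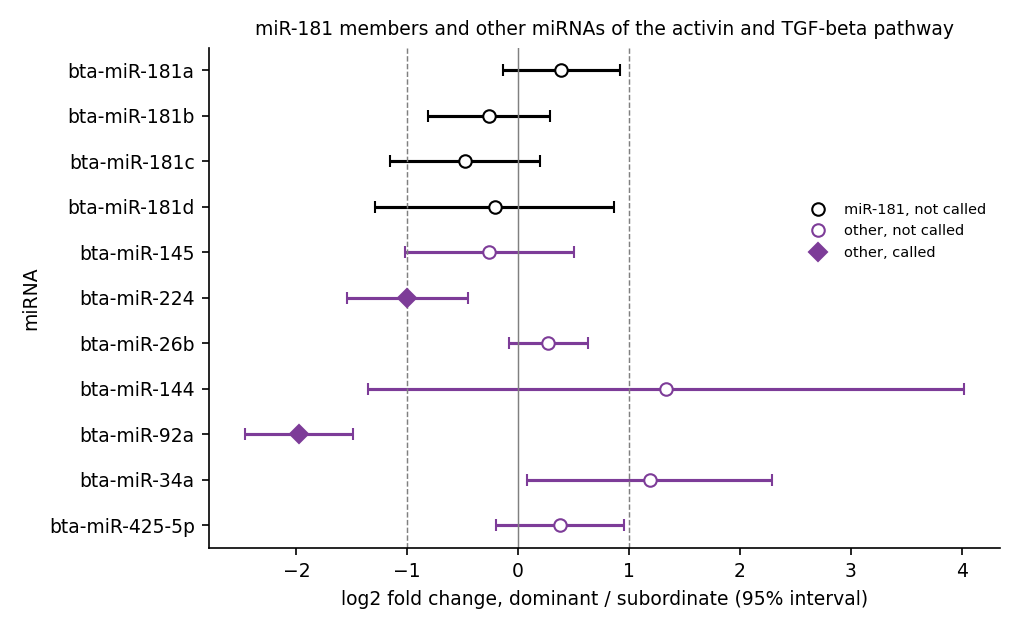
Log2 fold change of dominant over subordinate follicles (x axis) with its 95% interval for the 4 miR-181 members (black) and 7 other miRNAs reported to act on the activin and TGF-β pathway (purple), by name (y axis); filled diamonds were called, open circles were not, and dashed lines mark 1 and -1. The intervals of all 4 miR-181 members include 0, while those of bta-miR-224 and bta-miR-92a lie wholly below it and that of bta-miR-34a, which was not called, lies wholly above it.

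Markers of other cell types differed between libraries, and since lymphoid cells carry miR-181 their values are given here. The summed level of 7 blood cell miRNAs ranged from 3156 to 15491 CPM in dominant and from 2368 to 3538 CPM in subordinate follicles, and 2 of them, both of red cells, were called higher in dominant follicles, as were 11.9% of all tested miRNAs. Bta-miR-451, a red cell miRNA, had 642, 372 and 38 reads in dominant and 76, 58 and 28 reads in subordinate follicles. It was high in dominant replicates 1 and 2. Its log2 fold change was 3.00 and that of bta-miR-486 was 2.45. The edgeR calls of both were lost without dominant replicate 1 (2.42 and 1.74, adjusted p = 0.128 and 0.157), without dominant replicate 2 (2.88 and 2.48, adjusted p = 0.125 for both) or without subordinate replicate 3 (2.73 and 2.21, adjusted p = 0.119 and 0.126), although the folds stayed past the threshold. Bta-miR-144, also among these 7 blood cell miRNAs, was not called (log2 fold change 1.33, adjusted p = 0.45 from edgeR, at most 5 reads in any library). The leukocyte miRNAs bta-miR-150, bta-miR-155, bta-miR-142-5p and bta-miR-223 were not called, with log2 fold changes of 0.08, 0.47, 0.53 and -0.48, and bta-miR-142-3p had at most 1 read in any library.

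The endothelial bta-miR-126-5p and bta-miR-126-3p together ranged from 73.2 to 293 CPM in dominant and from 354 to 540 CPM in subordinate follicles, with neither called. Their log2 fold changes were -1.25 and -1.09, past the fold threshold, with adjusted p = 0.113 and 0.105 from edgeR. The CPM of each did not overlap between the groups, as for 36.8% of all tested miRNAs. Of 5 miRNAs of stroma and theca, bta-miR-214 was called lower in dominant follicles (log2 fold change -1.20) and 4 were not called, where 9.63% of all tested miRNAs were called lower. The summed levels overlapped at 17603 to 27823 CPM and 21064 to 35751 CPM. The edgeR call of bta-miR-214 held in 10 of 13 alternatives and was lost with the total count (-0.99, adjusted p = 0.107), without dominant replicate 1 (-1.12, adjusted p = 0.128) and without subordinate replicate 3 (-0.96, adjusted p = 0.108). Bta-miR-202, a miRNA of gonadal somatic cells, was present in every library and higher in dominant follicles by 1.80 on the log2 scale (standard error 0.15, adjusted p = 8.15e-05 from edgeR). The part of other cell types in the levels and ratios of the miR-181 members was not tested.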

How the data were processed

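Granulosa cell small RNA of 3 preovulatory dominant and 3 subordinate follicle pools was analysed. The deposited values are raw read counts that the authors made by trimming with Cutadapt and Seqtk, mapping with Bowtie to the bovine genome (UMD3.1 per the submitters' processing notes) and counting on miRBase miRNAs with miRDeep2, with 1 row per pair of mature miRNA and precursor (906 rows). A read that fits several precursors stands in several rows, so the largest row of a mature name was used. Names with equal counts in every library, such as bta-miR-129 and bta-miR-129-5p, were not merged. Library totals and shares over all tested miRNAs or their pairs therefore count such names separately. Mismatches allowed in counting are not given in the sources used here.

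Counts were tested with edgeR 4.0.16 (R 4.3.3), using TMM factors and the quasi-likelihood F test of follicle type, with no covariate. Benjamini-Hochberg adjustment covered the 353 miRNAs that had a read in 2 or more replicates of either group. Standard errors were derived from the fold change and F. Paralog ratios used 1 added read and a two-sided exact permutation test. The miRNAs named are the members, a list of reported activin and TGF-β pathway miRNAs, cell type markers, and the 3 nearest patterns per member with at least 10 reads on average in both groups. Members and lists were chosen with earlier results of these data known. The code was tested on simulated data. Alternatives covered DESeq2 1.42.0, scaling, filters, summed rows, a replicate block and each library left out. Intervals on reads cover counting error only. Python 3.11.15 with scipy 1.17.1 was used for the other steps.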

Additional observations from a re-analysis of the deposited data

How the results depend on the processing

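None of the 4 members was called in any of 13 alternatives (12 for bta-miR-181d, which a minimum of 10 reads in 3 libraries removed), and none of their log2 fold changes changed sign there. Bta-miR-181a ranged from 0.25 to 0.61 with 1 library left out, the lowest value without subordinate replicate 2 and the highest without subordinate replicate 3 (adjusted p = 0.0742 from edgeR, below the fold threshold), and from 0.34 to 0.59 in the others, where its adjusted p from edgeR or DESeq2 was never below 0.128. Bta-miR-181b moved from -0.26 to -0.084 without dominant replicate 1, -0.41 without dominant replicate 3 and -0.048 with the total count. Bta-miR-181c moved from -0.48 to -0.30 without dominant replicate 2 or with the total count, and to -0.31 without subordinate replicate 1. In the other direction it moved to -0.63 without dominant replicate 3 and to -0.59 without subordinate replicate 2. Bta-miR-181d moved from -0.21 to between -0.43 (without dominant replicate 1) and -0.015 (without subordinate replicate 2), and to -0.0054 with the total count. The number of miRNAs called was between 54 and 107 (76 as reported), the latter without the fold change threshold, and 61 with DESeq2. With the replicate number as a block (replicate block) it was 71, and bta-miR-181a was at 0.40. The labels do not say whether same-numbered libraries share animals. Deviations from the group mean of same-numbered libraries correlated at 0.007, 0.11 and 0.27, the last being the highest of all pairings. Dominant replicate 1 correlated best with subordinate replicate 2 (0.18), and dominant replicate 2 with subordinate replicate 1 (0.13). With 3 libraries per group these values cannot decide whether the libraries are paired.

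The ratio of bta-miR-181a to bta-miR-181b kept a positive log2 difference, from 0.48 without subordinate replicate 2 to 0.79, and that to bta-miR-181c one from 0.64 to 1.11. Leaving out libraries turned the sign for bta-miR-181b over bta-miR-181c (-0.081 to 0.43, negative without dominant replicate 2 or subordinate replicate 1) and over bta-miR-181d (-0.34 to 0.23, positive without dominant replicate 1 or subordinate replicate 3). The ratio of bta-miR-181a to bta-miR-181d ranged from 0.23 to 0.95 and that of bta-miR-181c to bta-miR-181d from -0.60 to -0.17. Summing precursor rows, which counts reads of bta-miR-181a and bta-miR-181b more than once, moved the family shares in dominant follicles to 91.7% for bta-miR-181a, 0.949% for bta-miR-181c and 0.189% for bta-miR-181d. In subordinate follicles bta-miR-181c moved to 1.67% and bta-miR-181d to 0.277%. With 3 libraries per group no test for outlying libraries was run, and the few reads of bta-miR-181d limit what can be said of it.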
